A study of Rattus norvegicus with 9 samples.

Results

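Cystine uptake, glutathione synthesis and the NRF2 response were followed through 10 rat genes in cortical cultures after oxygen-glucose deprivation (OGD). The genes were taken from the deposited tables by symbol, from a list drawn up with earlier results of these data known, and make up 10 of the 22050 genes listed. They are the transcription factor gene Nfe2l2; the transporter genes Slc7a11 and Slc3a2; the glutathione synthesis genes Gclc, Gclm and Gss; the reductase genes Gsr and Txnrd1; the peroxidase gene Gpx4; and the quinone reductase gene Nqo1. Each symbol matched 1 Ensembl gene, and all 10 passed the filter on low counts.

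NRF2, the protein made from Nfe2l2, is held low by KEAP1, which marks it for degradation. When electrophiles or oxidants modify KEAP1, NRF2 accumulates and binds antioxidant response elements in the promoters of its target genes, several of the other members among them. System xc-, made of the light chain xCT (Slc7a11) and the heavy chain 4F2hc (Slc3a2), brings in cystine in exchange for glutamate. Cystine yields cysteine for glutathione, the substrate that GPX4 uses to reduce lipid peroxides and that GSR restores from its oxidised form. In the brain, astrocytes are known for high NRF2 activity and for supplying neurons with glutathione precursors.

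The 9 RNA-seq libraries came from primary cortical neurons of Sprague Dawley rats, cultured from brains taken at embryonic day 19, and formed 3 groups of 3. Control cultures were untreated. OGD cultures, a model of ischaemia, were kept without glucose and pyruvate at 1% oxygen for 4.5 h and then put back into regular medium at normal oxygen; the tables call them vehicle, although the labels name none. The treated cultures also went through OGD and received Wnt3a, a secreted ligand of beta-catenin signalling, at 100 ng/ml together with Rspondin 1, which enhances Wnt responses, at 50 ng/ml for 24 h. Oxygen and hours of OGD are stated for OGD alone, the time of harvest is not stated, and treated cultures without OGD were not analysed here. The study asked which genes the 2 proteins regulate in neurons under OGD. Nothing states that replicates were separate cultures or litters, so p-values measure only how these samples spread, and that spread may be technical.

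Libraries held 14285914 to 25048521 counts. Although the label is neurons, markers of other cell types were present from the start. In control libraries the 12 astrocyte markers summed to 2975 to 3151 FPKM (fragments scaled by gene length and library size). The 12 neuron markers summed to 3006 to 3149 FPKM there. The lists hold different genes, so their sums do not compare numbers of cells. After OGD the neuron markers summed to 517.5 to 695.7 FPKM and all 12 fell, while astrocyte markers summed to 7086 to 7755 FPKM, with 10 of 12 higher and 1 lower. The largest term of the astrocyte sum was Gfap, with means of 902.7 FPKM in control libraries and 3498 FPKM after OGD. Markers of neural progenitors summed to 1045 to 1177 FPKM in control libraries and 4011 to 4575 after OGD, with 7 of 8 tested higher and 1 lower. Most of the progenitor sum was Fabp7 (means of 815 and 2738 FPKM) and Vim (197.4 and 1390 FPKM). It does not tell progenitors apart from other cells that may express these genes. The lower marker was Hes5, with means of 21.5 and 6.52 FPKM, and Eomes, at 0.0567 and 0.123 FPKM, was not tested. Oligodendrocyte lineage markers went from 447.8 to 536.5 FPKM up to 1129 to 1136, with 7 of 11 higher and 3 lower. Those of mural cells and fibroblasts went from 92.51 to 115.7 FPKM up to 670.5 to 884.1, with 3 of 7 tested higher and 2 lower. Most of that sum was Tagln, with means of 96.8 and 748.6 FPKM. Pdgfrb and Acta2 were also higher, Dcn and Lum were lower, and Col1a1 stayed at 0.583 and 0.65 FPKM. Microglia markers were near 0 throughout, at 3.6 to 5.87 FPKM in control libraries and 22.43 to 24.69 after OGD, and all 7 tested of 12 were higher. Endothelial markers summed to 29.95 to 34.17 FPKM in control libraries and 14.96 to 16.84 after OGD. Of 8, 3 could be tested, 2 of them higher and 1 lower, and Cldn5 had no read in any library. Most of the endothelial sum was Ramp2, the 1 that was lower, with means of 31.1 and 14.6 FPKM. The marker calls are by the edgeR test given below, in which 36.3% of all tested genes were higher and 36.8% lower. In such bulk samples fewer cells of a type and less RNA per cell cannot be told apart, and the part of these marker shifts in the results on OGD was not tested.

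Promoters are shown for 4 members because antioxidant response elements are the DNA sites through which NRF2 acts. RefSeq promoters of the rat assembly GRCr8, each spanning the 250 bases before and 50 after a start, were matched for 9 members (13 promoters; Gsr had no match). The core of the element was searched as TGACNNNGC on both strands. It occurred in promoters of 4 of the 9 members, Gclm, Slc3a2, Txnrd1 and Nfe2l2, that is in 4 of 13 promoters, and in 12.1% of all 33469 promoters in the table. In Nfe2l2 the match, TGACGCCGC, began at position 39 after the start, and with only the 250 bases before the start 3 members and 10.1% of all promoters held one. In the stretches below, which run 5′ to 3′ along the gene's strand, capitals mark the match; each is the reverse complement of the searched core, and Slc7a11 is shown as the transporter gene without one in this window. The Gclm stretch is chr2:213031885-213032134 on the plus strand with its match at position -172 from the start, and that of Slc3a2 is chr1:215039671-215039920 on the minus strand with its match at -45. Txnrd1 is chr7:22755905-22756154 on the minus strand with its match at -78, and Slc7a11 is chr2:136668265-136668514 on the minus strand. Slc3a2 and Txnrd1 each have another start in the table without a match. A match describes letters only and is not evidence of binding.
Gclm: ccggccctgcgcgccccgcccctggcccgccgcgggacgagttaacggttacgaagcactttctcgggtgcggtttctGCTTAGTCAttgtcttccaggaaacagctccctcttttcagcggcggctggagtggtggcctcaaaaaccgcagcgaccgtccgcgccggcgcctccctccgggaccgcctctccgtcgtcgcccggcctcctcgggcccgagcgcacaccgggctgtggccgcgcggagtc
Slc3a2: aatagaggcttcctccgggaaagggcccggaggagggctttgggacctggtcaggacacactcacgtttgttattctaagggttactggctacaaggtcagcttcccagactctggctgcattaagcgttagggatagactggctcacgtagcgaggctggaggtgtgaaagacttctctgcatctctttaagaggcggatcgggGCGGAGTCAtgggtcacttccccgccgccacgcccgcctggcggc
Txnrd1: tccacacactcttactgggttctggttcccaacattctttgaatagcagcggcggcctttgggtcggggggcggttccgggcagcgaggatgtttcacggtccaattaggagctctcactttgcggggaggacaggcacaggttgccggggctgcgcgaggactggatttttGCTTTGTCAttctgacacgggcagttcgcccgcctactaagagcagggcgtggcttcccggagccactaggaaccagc
Slc7a11: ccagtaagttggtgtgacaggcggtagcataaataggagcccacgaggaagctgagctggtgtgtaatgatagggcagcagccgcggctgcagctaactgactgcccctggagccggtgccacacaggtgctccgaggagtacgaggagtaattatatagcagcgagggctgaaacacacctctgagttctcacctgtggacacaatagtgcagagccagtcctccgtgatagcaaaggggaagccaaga

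OGD alone was first set against untreated cultures, which asks how the genes stood after deprivation and return to regular medium. Of the 10 members, 9 rose and 1 fell. Nqo1 rose most, 3.63-fold, the genes of cystine uptake 2.37-fold and 2.49-fold and those of glutathione synthesis 1.82-fold to 2.44-fold, while Gsr alone was lower. In edgeR's quasi-likelihood test, with p adjusted over 13693 tested genes (Benjamini-Hochberg) and a threshold of 0.05, the 9 higher members stand beside 36.3% of all tested genes that were higher and the 1 lower member beside 36.8% that were lower, 73.1% in all. The median log2 change was 1.22 over the members and 0.02 over all tested genes. In FPKM the OGD libraries lay wholly above the control libraries for 9 members and wholly below them for Gsr, against 40.7% and 34.6% of all tested genes, 75.3% together.

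**Figure D1:**
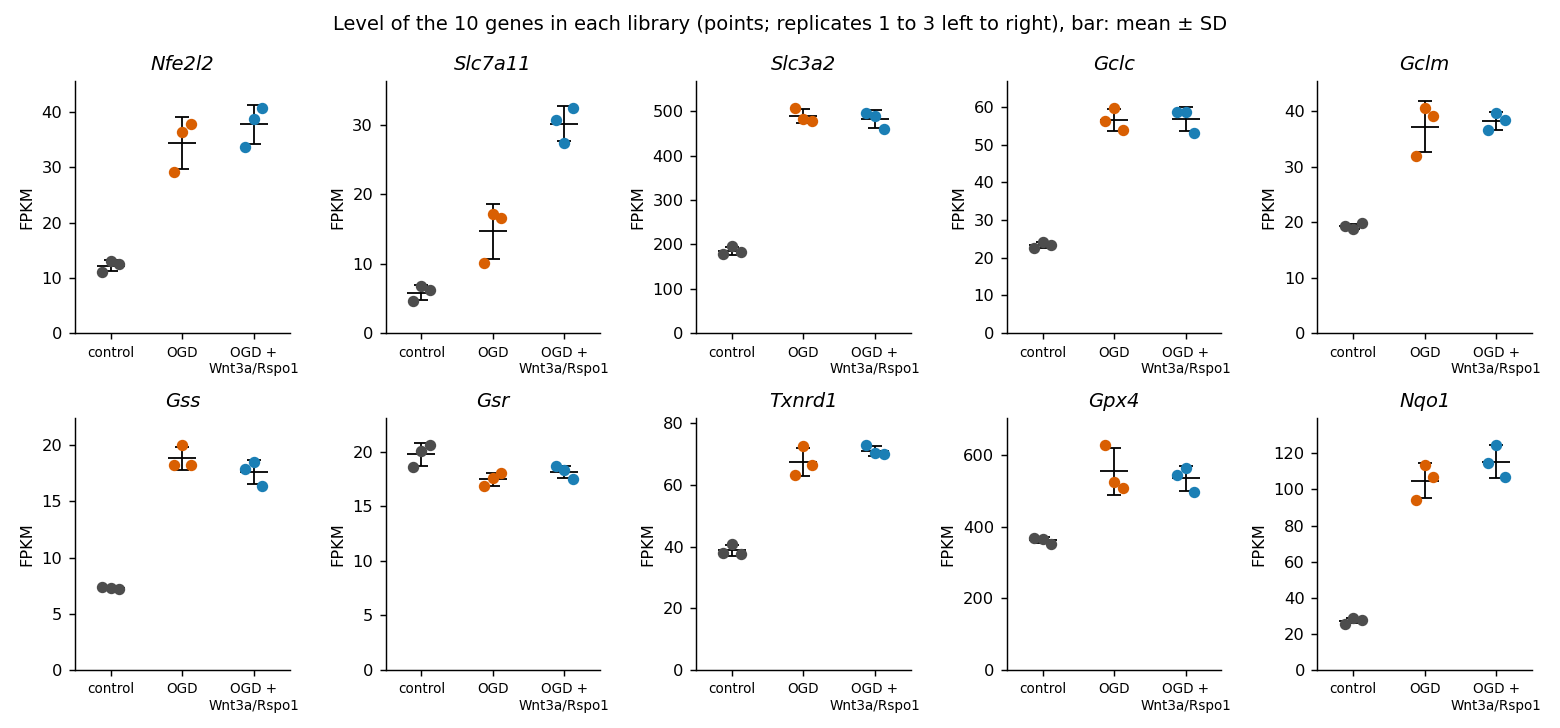
Level of each of the 10 genes in FPKM (vertical axes from 0), with 1 point per library in control, OGD and OGD with Wnt3a plus Rspondin 1 (Rspo1 on the axis), and bars for the mean ± SD of 3 libraries. Only for Slc7a11 do the 3 groups stand at 3 separate levels, with means of 5.83, 14.6 and 30.2 FPKM.

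Nfe2l2, which encodes NRF2 itself, measured 11.0, 13.0 and 12.6 FPKM in control replicates 1 to 3 and 29.1, 36.4 and 37.9 FPKM in OGD replicates 1 to 3. The lowest OGD library was above the highest control. Its log2 change was 1.42 ± 0.11 (± SE, adjusted p = 8.81e-08). With the 2 proteins its libraries measured 33.8, 38.8 and 40.8 FPKM, interleaved with those of OGD alone.

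Nqo1, an enzyme that reduces quinones and a common readout of NRF2 activity, measured 25.6, 28.7 and 27.6 FPKM in control libraries and 94.3, 113.8 and 106.7 FPKM after OGD. It rose by 1.86 ± 0.09 (adjusted p = 1.66e-09), the largest change among the 10 genes. Within each library the log2 ratio of Nqo1 to Nfe2l2 counts went from 0.62 ± 0.04 (SD, n = 3) to 1.06 ± 0.11, a 1.36-fold shift with no overlap. By an exact two-sided permutation test p = 0.1, the smallest that 3 against 3 libraries allow, and 0.2 after adjustment over 8 such tests of 4 ratios.

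The chains of system xc- both rose. Slc3a2, whose product also anchors other amino acid transporters at the membrane, was abundant, at 178.4, 196.4 and 182.3 FPKM in control libraries and 507.4, 483.7 and 477.2 FPKM after OGD, an increase of 1.31 ± 0.07 (adjusted p = 3.95e-09). Slc7a11, which gives the pair its specificity for cystine, was the lowest of the 10 genes in control libraries, at 4.61, 6.74 and 6.13 FPKM. After OGD it measured 10.1, 17.2 and 16.6 FPKM, with replicate 1 well under the other 2 but above every control library. Its rise was 1.25 ± 0.19 (adjusted p = 0.000108), with the widest SE of the 10. The log2 ratio of Slc7a11 to Slc3a2 counts was -2.90 ± 0.23 in control libraries and -2.99 ± 0.47 after OGD, a difference of -0.09 with overlapping libraries (exact permutation p = 1, adjusted 1). Without OGD replicate 1 that difference was 0.18.

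The enzymes of glutathione synthesis rose unevenly. Gclc, the catalytic subunit of glutamate-cysteine ligase, rose by 1.19 ± 0.08, with group means of 23.4 ± 0.812 and 56.6 ± 2.93 FPKM (± SD over 3 libraries; adjusted p = 1.35e-08). Gss, glutathione synthetase, rose by 1.29 ± 0.09, from 7.29 ± 0.0851 to 18.9 ± 1.04 FPKM (adjusted p = 4.79e-08). Gclm, the modifier subunit that raises the ligase's activity, measured 19.2, 18.8 and 19.8 FPKM in control libraries and 31.9, 40.6 and 39.1 after OGD, a smaller rise of 0.86 ± 0.09 (adjusted p = 2.23e-06). Its OGD libraries all exceeded the controls, replicate 1 by the least. The log2 ratio of Gclm to Gclc counts was accordingly lower after OGD, at -1.65 ± 0.19 against -1.32 ± 0.07, a difference of -0.33 without overlap (exact permutation p = 0.1, adjusted 0.2).

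Among the enzymes that use or renew thiols, Txnrd1 and Gpx4 rose and Gsr fell. Txnrd1, cytosolic thioredoxin reductase, went from 38.8 ± 1.70 to 67.5 ± 4.66 FPKM (0.72 ± 0.07, adjusted p = 1.2e-06). Gpx4 was the most abundant member and rose by 0.53 ± 0.09, from 362.5 ± 8.50 to 554.2 ± 65.3 FPKM (adjusted p = 0.000177); here OGD replicate 1 was the highest of its group, at 628.9 FPKM. Gsr, which reduces oxidised glutathione, measured 18.6, 20.1 and 20.6 FPKM in control libraries and 16.8, 17.6 and 18.0 after OGD. The groups did not overlap but lay close, and the log2 change was -0.26 ± 0.08 (adjusted p = 0.00971). This call was lost when libraries were scaled by their totals (-0.18, adjusted p = 0.0641) and without control replicate 3 (-0.23, adjusted p = 0.0528), and the adjusted p ranged from 0.00374 to 0.0641 over 12 alternatives.

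The 2 reductases also diverged between the groups in ratios taken inside each library. The log2 ratio of Gsr to Txnrd1 counts, which needs no scaling between libraries, was -1.92, -1.91 and -1.76 in control libraries and -2.80, -2.93 and -2.78 after OGD. That is a 0.509-fold shift, larger than the spread of either group, with an exact permutation p = 0.1 (the smallest possible, adjusted 0.2). The larger part of it was the rise of Txnrd1.

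**Figure D2:**
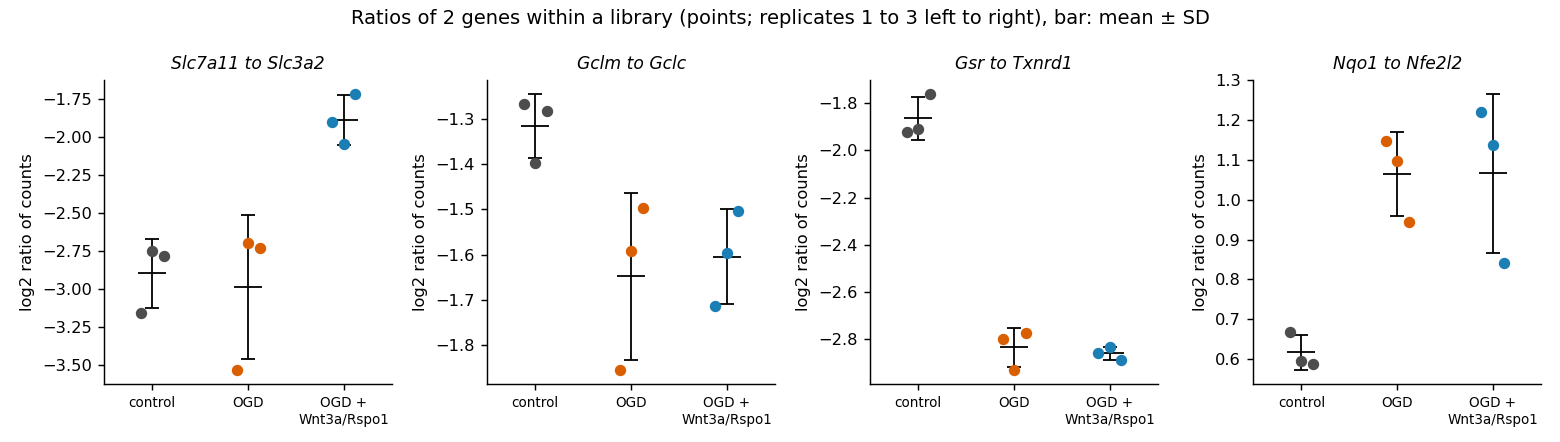
Log2 ratio of the counts of 2 genes in the same library, for 4 pairs in 3 groups (points: libraries; bars: mean ± SD, n = 3; the vertical axes do not start at 0 and differ between panels). The Gsr to Txnrd1 ratio drops by 0.98 after OGD, and the Slc7a11 to Slc3a2 ratio stands 1.10 higher with Wnt3a plus Rspondin 1 than with OGD alone.

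Treated OGD cultures were then set against OGD alone, the same 3 OGD libraries as above, so the 2 comparisons share samples. One member stood apart. Slc7a11 measured 30.7, 27.4 and 32.4 FPKM with Wnt3a plus Rspondin 1, and every one of these libraries was above the highest OGD library, 17.2 FPKM. The underlying counts were 5459, 4143 and 4756 against 1285, 3402 and 2325. The difference was 1.02 ± 0.18 on the log2 scale, 2.03-fold with a 95% interval of 1.54 to 2.69, but it did not pass in edgeR (adjusted p = 0.0657; unadjusted p = 0.000181). No member was called in this comparison, beside 0.197% of all tested genes (0.175% higher, 0.0219% lower). Slc7a11 was the 1 member with an unadjusted p under 0.05, as were 5.73% of all tested genes, and the 1 member whose FPKM did not overlap, beside 5.86% of tested genes wholly higher and 3.87% wholly lower (9.73% together).

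Whether Slc7a11 passed turned on the fit and on 1 library. DESeq2 called it (1.01, adjusted p = 5.23e-06), and so did edgeR without OGD replicate 1 (0.83, adjusted p = 0.0163), where the difference was smaller but the OGD libraries lay close together. Over 12 alternatives the log2 difference ran from 0.83 to 1.16 and the adjusted p from 5.23e-06 to 0.278, with 3 of 12 under the threshold. In the authors' deposited table for this pair of groups, Slc7a11 has a log2 change of 1.04 and an FDR of 2.88e-07, by a test not given in the sources used here. The other 9 members have an FDR of 0.9999 in the authors' deposited table.

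OGD replicate 1 deviated from its group mean by -0.47 on the log2 scale for Slc7a11, -0.22 for Nfe2l2, -0.19 for Gclm and 0.21 for Gpx4. Slc7a11 is long, about 8889 to 8903 bases as implied by its counts and FPKM, and Gpx4 is short, at 883.5 to 885.1 bases. Over all 1285 tested genes of at least 5 kb the median deviation of that library was -0.04, and over the 1292 genes under 1 kb it was 0.12. Between the 2 groups the median log2 difference of genes of at least 5 kb was -0.02. The part of length in the result was not tested.

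Slc3a2, the partner chain, showed no difference of that size. It measured 497.3, 490.2 and 460.2 FPKM in treated cultures, overlapping the OGD libraries although replicate 3 lay below all of them, with a log2 difference of -0.04 ± 0.07 (95% interval -0.19 to 0.11). The log2 ratio of Slc7a11 to Slc3a2 counts was higher inside every treated library, at -1.90, -2.05 and -1.71 against -3.53, -2.70 and -2.73 with OGD alone. The difference was 1.10, or 2.15-fold (exact permutation p = 0.1, the smallest possible, adjusted 0.2), and it lay between 0.83 and 1.25 when each library was left out in turn or FPKM replaced counts.

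The remaining members gave overlapping libraries in both OGD groups. Nqo1 measured 115.0, 124.8 and 106.7 FPKM with the 2 proteins (difference 0.12 ± 0.09, 95% interval -0.07 to 0.30), and Nfe2l2 differed by 0.11 ± 0.10 (-0.12 to 0.34). Gclc, Gclm and Gss differed by -0.02, 0.02 and -0.12, Gsr and Txnrd1 by 0.03 and 0.06, and Gpx4 by -0.07. Their adjusted p in edgeR was 0.976 to 0.995, and the 95% intervals of these 8 genes and Slc3a2 spanned 0.806-fold to 1.26-fold at the widest. Differences inside a gene's own interval remained compatible with these libraries. Some intervals were narrower than that range, as for Slc3a2 at 0.875-fold to 1.08-fold. The other 3 ratios also overlapped between the OGD groups, with differences of 0.04 for Gclm to Gclc, -0.02 for Gsr to Txnrd1 and 0.00 for Nqo1 to Nfe2l2 (exact permutation p = 0.9, 0.7 and 1, each 1 after adjustment).

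**Figure D3:**
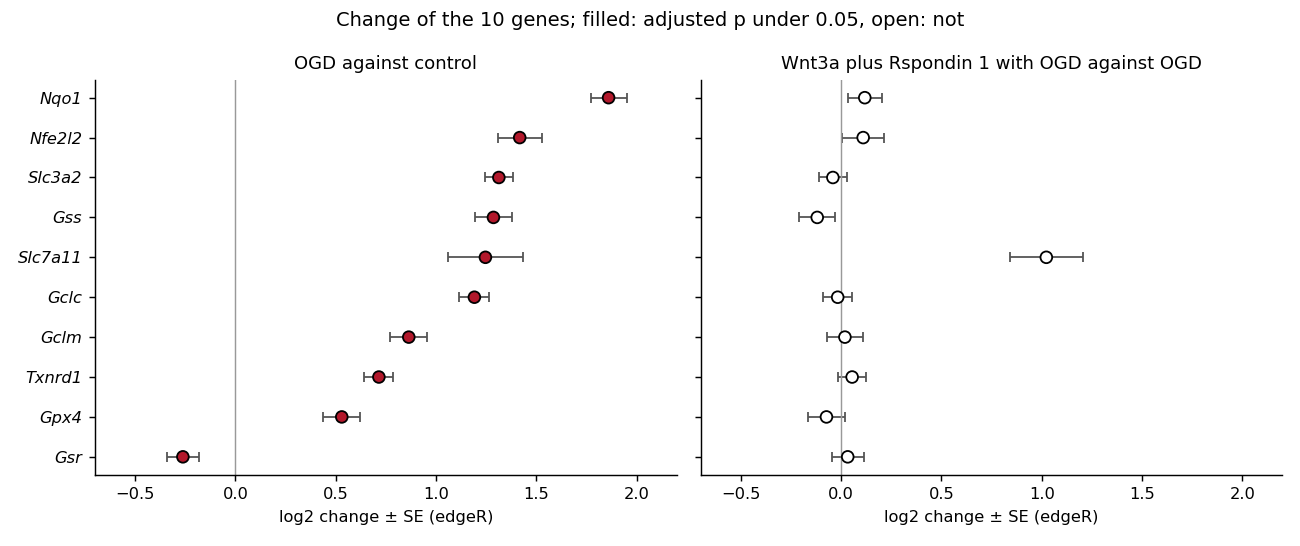
Log2 change ± SE of the 10 genes in edgeR for OGD against control (left) and OGD with Wnt3a plus Rspondin 1 against OGD (right), where filled points have an adjusted p under 0.05 and open points do not. All 10 are filled on the left, 9 of them to the right of 0, and on the right Slc7a11 alone lies away from 0, at 1.02.

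Few cell type markers passed in edgeR between the 2 OGD groups, as did few of all tested genes (0.175% higher, 0.0219% lower). Neuron markers summed to 519.4 to 673.4 FPKM in treated cultures, none of the 12 passing, and astrocyte markers to 6594 to 6900 FPKM, below the OGD libraries, with 1 of 12 higher and 1 lower. These were the gap junction gene Gja1, at 0.38 (adjusted p = 0.0404, lost in 7 of 12 alternatives), and Glul, glutamine synthetase, at -0.59 (adjusted p = 0.00293). None of the tested markers of the other 5 cell types passed: the sums were 23.79 to 27.45 FPKM for microglia, 1084 to 1178 for the oligodendrocyte lineage, 4030 to 4533 for progenitors, 15.11 to 15.62 for endothelium and 639 to 758.5 for mural cells and fibroblasts. Some markers that did not pass had FPKM that did not overlap between the 2 groups, as did 9.73% of all tested genes. By edgeR, Hes5 (-1.08 ± 0.24, adjusted p = 0.121) and Gfap (-0.25 ± 0.09, adjusted p = 0.592) were among the lower ones. Mog (0.67 ± 0.20, adjusted p = 0.442) was among the higher ones. The part of the markers in the difference of Slc7a11 was not tested.

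The order of the levels, in FPKM and so per length, changed between Txnrd1 and Nqo1 and at its lower end. In control libraries it ran from Gpx4 and Slc3a2 through Txnrd1, Nqo1, Gclc, Gsr, Gclm, Nfe2l2 and Gss to Slc7a11, and only the neighbours Gsr and Gclm overlapped. After OGD Nqo1 stood above Txnrd1, and Gsr had moved to 9th, overlapping Slc7a11 in last place; Gclm and Nfe2l2 overlapped in 6th and 7th. With Wnt3a plus Rspondin 1, Slc7a11 was 8th, apart from Nfe2l2 above it and from Gsr below it, while Gsr and Gss overlapped, as did Gclm and Nfe2l2. The spread over members was wide in each group, from 5.83 to 362.5 FPKM in control libraries.

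Genes with the most similar profile over the 9 libraries were ranked for 3 members by Pearson's r of log2 CPM (counts relative to the library size) among 11907 genes, a description over points that share their groups. For Slc7a11 they were Laptm4a, a lysosomal membrane protein gene (0.984), Galnt1, which starts mucin-type glycosylation (0.984), and Mplkip (0.983). Pearson's r does not measure the size of a change. In edgeR, Mplkip passed neither after OGD (0.165, adjusted p = 0.143) nor between the OGD groups (0.102, adjusted p = 0.976). Galnt1 passed after OGD (0.841, adjusted p = 4.75e-06) but not between the OGD groups (0.425, adjusted p = 0.141). Laptm4a also rose in steps, from 156.8 to 345.5 and 578.7 FPKM, and its treated against OGD difference of 0.72 passed in edgeR (adjusted p = 0.00715), though not without treated replicate 2 (adjusted p = 0.0815; 8.77e-09 to 0.0815 over 12 alternatives). For Gclm they were Bfar (0.997), Tmem209 (0.997) and Jam2 (0.997), and for Gsr Rbmxl1b (0.984), the asparaginyl-tRNA synthetase gene Nars (0.979) and Lyrm9 (0.973).

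The wider pathway was taken as 10 lists holding 172 genes of the tables once each, of which 163 could be tested. After OGD 130 of the 163 passed in either direction by edgeR's quasi-likelihood test, beside the 73.1% of all tested genes given above. By direction, 36.3% of all tested genes were higher and 36.8% lower. The counts of each list below stand beside these shares. The transport list shares Slc1a2 and Slc1a3 with the astrocyte markers, Sesn2 and Chac1 stand in 2 lists each, and the marker sums above moved in the same libraries.

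Of 13 NRF2 regulators 4 rose and 5 fell (median log2 change 0.21). Keap1, the repressor, rose by 0.64 ± 0.11, and Sqstm1, the autophagy receptor p62 that can sequester KEAP1, rose by 0.57 ± 0.06. Bach2, a repressor that binds the same kind of DNA element, fell by 1.56 ± 0.12, and Btrc, part of another ubiquitin ligase of NRF2, fell by 1.15 ± 0.09. Of 21 tested further NRF2 targets 15 rose and 3 fell (median 0.76). The haem oxygenase gene Hmox1 rose by 2.04 ± 0.07 and the ferritin heavy chain gene Fth1 by 1.74 ± 0.08, while the ubiquitin ligase gene Trim16 fell by 0.93 ± 0.11 and the NADPH-forming Idh1 by 0.49 ± 0.07.

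Other transporters of cystine and cysteine and other partners of 4F2hc split, with 8 of 13 tested higher and 5 lower (median 0.54). Cd44, whose product stabilises xCT at the cell surface, rose by 1.5 ± 0.09, and Slc7a8, a neutral amino acid light chain that pairs with 4F2hc, rose by 1.25 ± 0.08. Slc1a1, the neuronal carrier of glutamate and cysteine, fell by 1.15 ± 0.10, and Slc3a1, the heavy chain of the renal cystine transporter, fell by 1.69 ± 0.14. Between the OGD groups, Slc7a8 had means of 28 FPKM with OGD alone and 21.7 FPKM with the 2 proteins. That log2 difference of -0.39 did not pass in edgeR (adjusted p = 0.0686). It passed in 2 of 12 alternatives, DESeq2 among them (adjusted p = 0.000581, with 0.000581 to 0.362 over the 12). Of 11 transsulfuration genes 6 rose and 1 fell (median 0.84): Csad, on the way to taurine, rose by 1.17 ± 0.09 and Mat2a, which makes S-adenosylmethionine, by 0.84 ± 0.07. The 1 fall, Mat2b at -0.26 (adjusted p = 0.0452), was lost in 7 of 12 alternatives (0.0119 to 0.19).

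Genes that use, recycle or break down glutathione rose in 18 of 33 cases and fell in 8 (median 0.49). The microsomal glutathione transferase gene Mgst1 rose by 2.27 ± 0.10, from 11.1 to 57.0 FPKM, while its relative Mgst3 fell by 2.09 ± 0.13, from 107.2 to 26.8 FPKM. Oplah, 5-oxoprolinase of the glutathione cycle, rose by 1.95 ± 0.11, and Ggt7, of the gamma-glutamyltransferase family, fell by 1.75 ± 0.10. Reads of near-identical glutathione transferase and ferritin genes may be split between copies, so those values are uncertain.

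Thioredoxin and peroxiredoxin genes rose in 15 of 20 cases and fell in 1 (median 0.64). Txnip, an inhibitor of thioredoxin, rose by 1.70 ± 0.08 and the peroxiredoxin gene Prdx6 by 1.5 ± 0.08, while Txnrd3, a relative of Txnrd1, fell by 0.46 ± 0.09. The number that fell was 2 without OGD replicate 2 and with only the 6 libraries compared. All 7 tested genes of the list on superoxide and peroxide rose (median 1.23), catalase (Cat) by 1.23 ± 0.06 and the NADPH oxidase subunit gene Cyba by 1.5 ± 0.13. The oxidase genes Nox1, Nox4 and Cybb had too few reads to be tested.

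Selenoprotein synthesis and supply, which Gpx4 and Txnrd1 depend on, had 8 of 15 tested genes higher and 3 lower (median 0.35). Selenop, a selenium carrier, rose by 1.44 ± 0.11, Selenon rose by 1.07 ± 0.11, Selenom fell by 1.92 ± 0.14 and the SELENOP receptor gene Lrp8 fell by 0.83 ± 0.08. Genes of lipid peroxidation and ferroptosis, the cell death that Gpx4 restrains, split evenly, with 6 higher, 6 lower and 6 not called of 18 (median -0.08). The phospholipid acyltransferase genes Mboat2 and Lpcat3 rose by 0.81 ± 0.08 and 0.55 ± 0.08, while Dhcr7, the last enzyme of cholesterol synthesis, fell by 1.93 ± 0.09 and the desaturase gene Scd by 1.90 ± 0.13. Acsl4 fell by more than either, 2.63 ± 0.21.

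ATF4 and amino acid response genes were included because ATF4 is a known regulator of Slc7a11. Of 14 tested, 7 rose and 6 fell (median 0.21), with the serine synthesis genes Psat1 and Phgdh higher by 1.48 ± 0.09 and 1.30 ± 0.10, and the asparagine synthetase gene Asns and Ddit4 lower by 1.15 ± 0.09 and 1.45 ± 0.10. Atf4 itself was among those that fell, by 0.46 ± 0.10 in mRNA, and the level of its protein was not measured. Between the OGD groups the list median was 0.11, and Atf4 differed by 0.11 ± 0.10 (edgeR, adjusted p = 0.976). The part of ATF4 in the levels of Slc7a11 was not tested. With Wnt3a plus Rspondin 1 against OGD alone, none of the 163 list genes passed in edgeR, beside 0.197% of all tested genes. In the same test 14 of them had an unadjusted p under 0.05, beside 5.73% of all tested genes. DESeq2 called 1, Slc7a8, and of all 15009 genes it tested called 55 higher and 34 lower.

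**Figure D4:**
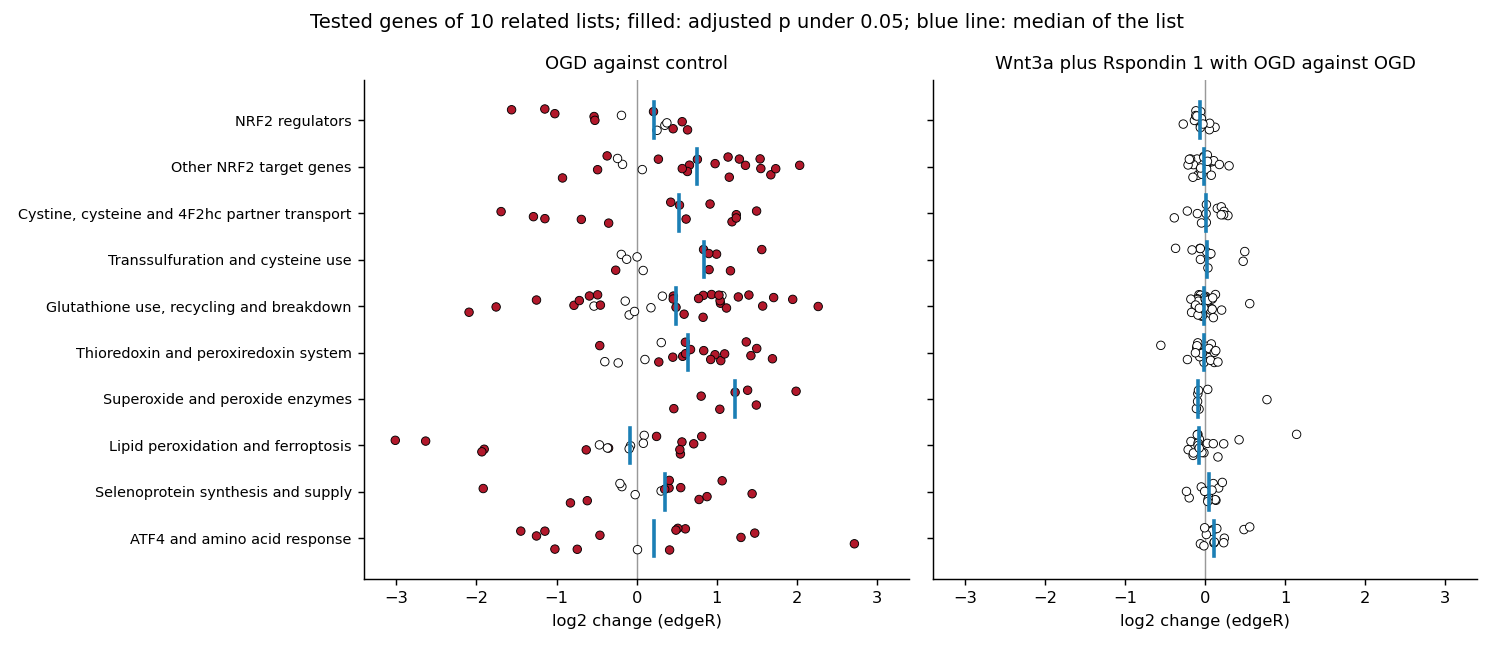
Log2 change in edgeR of every tested gene in the 10 lists (points; filled where the adjusted p is under 0.05) with the median of each list as a blue line, for OGD against control (left) and OGD with Wnt3a plus Rspondin 1 against OGD (right). On the left the list medians run from -0.08 for lipid peroxidation to 1.23 for superoxide and peroxide enzymes, and on the right no point is filled.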

How the data were processed

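RNA-seq of 9 rat libraries, 3 per group, was analysed from the tables that the authors deposited. These hold, per the file headers, raw read counts and FPKM per gene, and a log2 fold change, p-value and FDR per pair of groups, which the authors computed by a test not given in the sources used here. Bowtie 0.12.2 and 2 mouse genome builds, mm8 and mm9, stand in the submitters' processing notes, although the gene identifiers are rat. The sources used here do not give the rat build, annotation, counter or use of strand, and overlapping antisense genes cannot be told apart. The length implied by count and FPKM varied by at most 0.188% between libraries for each of the 10 genes.

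Deposited counts of all 9 libraries entered 1 fit of edgeR 4.0.16 (R 4.3.3; TMM scaling, filterByExpr with minimum count 10, robust quasi-likelihood F test, 6 residual degrees of freedom), which tested 13693 of 17332 genes with a read; adjustment was by Benjamini-Hochberg over all of these with a threshold of 0.05. Ratios of 2 genes were tested by exact two-sided permutation over libraries. Recovery was tested on simulated data that had the same spread in every library, unlike these libraries. Its outcome is not reported here and no result above rests on it. Totals were 14285914 to 25048521 counts, and replicate pairs differed by more than counting error (chi-square of 3.69 to 29.7 for each degree of freedom). Intervals cover the spread between libraries.

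The members and gene lists were chosen with earlier results of these data known. From each pathway list up to 2 genes that rose and 2 that fell with the smallest adjusted p were named, and for likeness the 3 genes with the highest r. Acsl4 and Atf4 were named in addition to that rule. Searches of the same promoters for TGATGNAA, the core of ATF4 sites, and CTTTGAT, a TCF/LEF site, and the length classes were added after seeing the data. Alternatives were library totals, RLE factors, DESeq2 1.42.0, no count filter, only the 6 libraries compared, the replicate number as a block and each library left out.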

Additional observations from a re-analysis of the deposited data

How the results depend on the processing

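Over 12 alternatives each, all 10 members kept their direction after OGD, and the 9 rises passed each time; Gsr was lost with library totals and without control replicate 3. Library totals moved the median log2 change of all genes from 0.02 to 0.11 and gave 5526 genes higher and 4592 lower, against 4972 and 5040. For Wnt3a plus Rspondin 1 with OGD against OGD, the 27 genes called became 89 by DESeq2, 15 with only the 6 libraries compared, and 12 to 49 when 1 library was left out (49 without OGD replicate 1, 13 without OGD replicate 2, 12 and 17 without treated replicates 2 and 3). The members called became 1, Slc7a11, by DESeq2 and without OGD replicate 1, and ranged from 0 to 1 over the fits that left out a library. With the replicate number as a block 65 genes and 1 member, Slc7a11 (1.06, adjusted p = 0.0247), were called; after OGD it gave 5121 genes higher and 5180 lower. Nothing in the labels pairs the libraries by number. Deviations of same-numbered libraries had r from -0.05 to 0.27 between control and OGD (other pairs -0.32 to 0.28). Between the OGD groups r was 0.07 to 0.27 for the 3 same-numbered pairs and -0.24 to -0.02 for the others, so each library correlated best with its own number, a hint from the data and not from the design. The cause of these shifts was not tested. Depth limits Slc7a11 little, at 825 to 5459 counts. The intervals rest on the spread inside the 3 groups, from 1 edgeR fit of all 9 libraries.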

Other observations

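The promoters of the 9 matched members held neither TGATGNAA, the core of sites bound by ATF4 (3.98% of all 33469 RefSeq promoters in GRCr8), nor CTTTGAT, a site of TCF/LEF factors (3.63%), on either strand. Both motifs were chosen after the data had been seen, and no match says only that these letters are not in these windows.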
